A study of Mus musculus with 11 samples.

Results

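Transcripts of 10 genes known from the cells of brain blood vessels were followed in RNA from cells labelled microglia-like. The genes were taken by symbol from a list of endothelial and mural genes (Cldn5, Cdh5, Pecam1, Ly6c1, Flt1, Rgs5, Vtn, Igfbp7, Igfbp5 and Bgn), and all 10 were found among the 24411 gene symbols counted. Endothelial cells line the vessels of the brain, and their tight and adherens junctions seal the wall and form the blood–brain barrier. Mural cells, which are the pericytes of capillaries and the smooth muscle cells of larger vessels, wrap the endothelium and share a basement membrane with it. None of these cells belongs to the myeloid lineage, although some of the genes, such as Pecam1, are also known from blood leukocytes and platelets.

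The study transplanted mouse haematopoietic cells by different routes and sequenced polyadenylated RNA from sorted myeloid populations of the brain. There were 11 libraries, 1 for each combination of route and population, with no replicate of any combination. The routes were an intrathecal lumbar injection (ITL), an injection into the cerebral ventricles (ICV) and an intravenous one (IV). For each route there was a library of CD45.1 genotype named TAµ, a library of CD45.2 genotype named µ and a library of CD45.1 genotype named µ, which makes a complete layout of 9. The remaining libraries were an ICV library of CD45.2 genotype named PBS and a library named CTR µ, whose label gives no genotype. CD45.1 and CD45.2 are alleles of a leukocyte surface protein that are used to tell donor from host cells, but the labels do not say which allele was the donor's, what TAµ stands for, or the age, sex or number of animals behind a library. The comparison of populations asks whether cells of different origin and type carried different levels of these transcripts, and the comparison of routes asks the same of the way of delivery.

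Total counts lay between 6090589 in ITL CD45.2 µ and 21282823 in ICV CD45.2 µ. The microglia list of 10 genes had a count for every gene in all 11 libraries, with sums of at least 11120 CPM (the count divided by the library total, times 1000000). The 2 libraries with the fewest genes counted were ICV CD45.1 µ, with 11456 genes, and IV CD45.2 µ, with 10477, against up to 15492 elsewhere. IV CD45.2 µ also stood apart in the neutrophil list, whose sum was 1.93 CPM there and between 550.1 and 9116 CPM in the other libraries. A count of 0 allows a level of up to 3 counts, which is between 0.141 and 0.493 CPM depending on the library, and such limits cover counting error only.

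The promoter sequences of the genes whose levels varied most alike are shown because these genes moved together across libraries. Of the 6 genes that correlated at over 0.9 with the other 9, 5 had an entry in the RefSeq promoter table (build GRCm38.p6), and the 250 bases before the transcription start are printed 5′ to 3′ on the gene's strand. Capitals mark AGGAAG or CGGAAG on either strand, forms of the GGAA core bound by ETS factors, a family known for endothelial gene expression. GGAA with other bases around it was not searched for and is not marked, also where it occurs in these sequences.
Cldn5, chr16:18776597-18776846, plus strand: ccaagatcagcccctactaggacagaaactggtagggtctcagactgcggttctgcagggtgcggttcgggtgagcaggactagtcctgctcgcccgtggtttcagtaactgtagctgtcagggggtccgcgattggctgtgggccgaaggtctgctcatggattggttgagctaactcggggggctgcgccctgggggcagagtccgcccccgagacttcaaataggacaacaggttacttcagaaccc
Flt1, chr5:147726012-147726261, minus strand: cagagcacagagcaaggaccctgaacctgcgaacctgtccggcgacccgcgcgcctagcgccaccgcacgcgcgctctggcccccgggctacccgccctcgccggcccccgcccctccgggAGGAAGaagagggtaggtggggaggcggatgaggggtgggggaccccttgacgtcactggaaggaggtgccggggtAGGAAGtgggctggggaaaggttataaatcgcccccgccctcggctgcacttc
Ly6c1, chr15:75048664-75048913, minus strand: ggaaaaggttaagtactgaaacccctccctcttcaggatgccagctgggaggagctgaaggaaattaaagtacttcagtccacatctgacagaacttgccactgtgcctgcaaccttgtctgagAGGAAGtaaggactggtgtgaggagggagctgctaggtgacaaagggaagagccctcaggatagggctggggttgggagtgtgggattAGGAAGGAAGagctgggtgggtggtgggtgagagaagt
Igfbp5, chr1:72874866-72875115, minus strand: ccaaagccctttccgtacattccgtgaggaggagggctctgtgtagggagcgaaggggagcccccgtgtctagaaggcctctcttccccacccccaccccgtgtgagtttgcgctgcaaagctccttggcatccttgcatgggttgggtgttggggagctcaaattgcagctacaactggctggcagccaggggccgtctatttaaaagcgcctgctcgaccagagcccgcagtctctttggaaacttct
Igfbp7, chr5:77408046-77408295, minus strand: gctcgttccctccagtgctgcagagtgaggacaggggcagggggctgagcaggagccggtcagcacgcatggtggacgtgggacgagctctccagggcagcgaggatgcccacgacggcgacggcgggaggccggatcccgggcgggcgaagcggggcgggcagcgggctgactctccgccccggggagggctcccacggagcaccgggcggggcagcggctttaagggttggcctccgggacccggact
The marked letters occurred 2 times before Flt1 and 3 times before Ly6c1, where a pair of matches overlap. Neither AGGAAG nor CGGAAG occurred before Cldn5, Igfbp5 or Igfbp7, which is no statement about other forms of the core. Ly6c1 had 2 promoter entries and the one with more matches is shown. Over the 8 members with an entry, 3 held the letters in any of their entries, the other being Bgn. Of all 32851 entries, counted singly and not by gene, 39.2% held them. A match is a description of these letters and not of binding, and the authors' counts were made on another build, so no count is tied to these positions.

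Ly6c1 needs a second sequence, because its neighbour in the same cluster on chromosome 15, the monocyte gene Ly6c2, is a near-identical copy. The coding sequences of both genes in the GENCODE annotation of GRCm38 are 396 bases long, differ at 9 positions and are 97.7% identical, with a longest identical stretch of 188 bases. The first 120 bases of each are shown with the 6 differing bases in capitals.
Ly6c1: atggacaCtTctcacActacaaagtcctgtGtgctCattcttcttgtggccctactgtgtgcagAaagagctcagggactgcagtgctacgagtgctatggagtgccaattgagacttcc
Ly6c2: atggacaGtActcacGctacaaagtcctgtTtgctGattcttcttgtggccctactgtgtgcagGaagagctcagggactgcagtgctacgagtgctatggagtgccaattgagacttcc
Reads from the stretches without a difference cannot be assigned to either copy by sequence, so the counts of both genes are uncertain to that degree. In these libraries their levels did not run together. Ly6c2 was at 0 in IV CD45.2 µ, where Ly6c1 had 37.1 CPM, and at 70.7 CPM in IV CD45.1 µ, where Ly6c1 was at 0.

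Summed over the 10 genes, the highest level was 471.7 CPM in IV CD45.2 µ and the lowest 22.9 CPM in IV CD45.1 µ. The sum was 92.7, 341.9 and 30.3 CPM in the ITL, ICV and IV libraries of CD45.1 TAµ cells. It was 291.3, 110.6 and 471.7 CPM in the ITL, ICV and IV libraries of CD45.2 µ cells, against 107.0, 38.9 and 22.9 CPM in those of CD45.1 µ cells. The PBS library had 31.6 CPM and the CTR µ library 91.3 CPM. The CD45.2 µ library was above the CD45.1 µ library of the same route in all 3 routes, whereas CD45.1 TAµ was far above CD45.1 µ by the ICV route alone. At these levels the 10 genes together were a small part of each library. In bulk RNA, fewer cells of a type and less RNA per cell cannot be told apart.

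**Figure D1:**
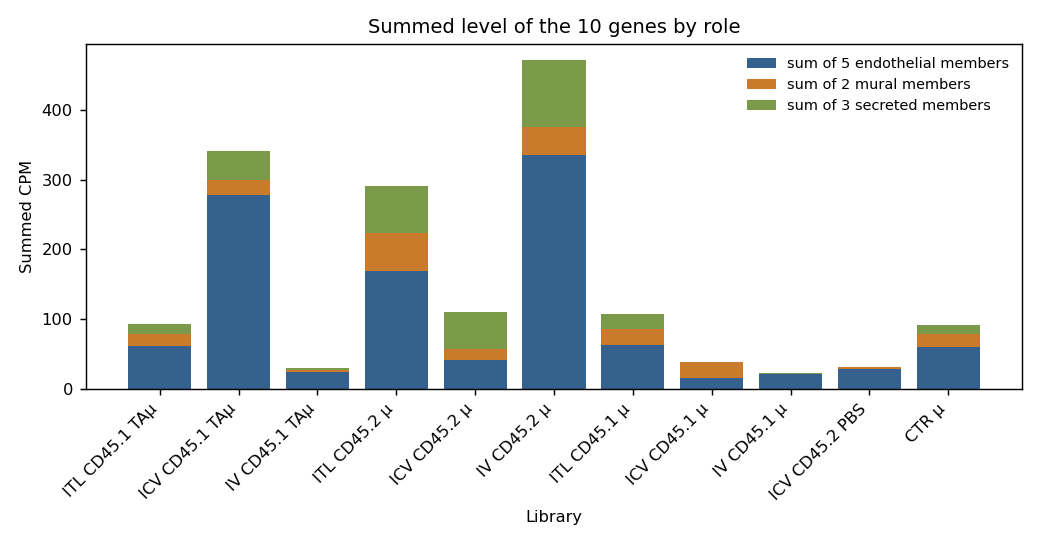
Summed CPM of the 10 genes in each of the 11 libraries (1 bar a library, 1 library each, no error), split into 5 endothelial genes (Cldn5, Cdh5, Pecam1, Ly6c1, Flt1), 2 mural genes (Rgs5, Vtn) and 3 genes of secreted proteins (Igfbp7, Igfbp5, Bgn). The tallest bars are IV CD45.2 µ at 471.7 CPM, ICV CD45.1 TAµ at 341.9 CPM and ITL CD45.2 µ at 291.3 CPM.

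The genes of endothelial junctions were high in the same 2 libraries. Cldn5, the main claudin of the tight junctions of brain endothelium, had 6.31, 46.5 and 0.946 CPM in ITL, ICV and IV CD45.1 TAµ, and 12.5, 3.52 and 54.3 CPM in ITL, ICV and IV CD45.2 µ, against 12.4, 0 and 0.880 CPM in ITL, ICV and IV CD45.1 µ. The ICV library of CD45.1 TAµ and the IV library of CD45.2 µ were thus high, every other library was at or below 12.5 CPM, and the populations overlapped. Cdh5, or VE-cadherin, the adhesion protein of endothelial adherens junctions, had 5.36, 35.3 and 1.96 CPM in ITL, ICV and IV CD45.1 TAµ, and 22.3, 4.13 and 90.3 CPM in ITL, ICV and IV CD45.2 µ, against 9.59, 0 and 1.29 CPM in ITL, ICV and IV CD45.1 µ. The same pair of libraries led, with IV CD45.2 µ more than 2-fold above the next. Cdh5 and Cldn5 were both without a count in ICV CD45.1 µ, where 3 counts would be 0.269 CPM.

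Pecam1, which codes for the adhesion protein CD31 of endothelial cells and also of platelets and leukocytes, followed this order least among the endothelial genes. It had 16.9, 29.1 and 6.96 CPM in ITL, ICV and IV CD45.1 TAµ, and 36.0, 5.54 and 84.1 CPM in ITL, ICV and IV CD45.2 µ, against 7.31, 7.45 and 10.3 CPM in ITL, ICV and IV CD45.1 µ. It was counted in every library, at 14.99 CPM with PBS and at 29.9 CPM in CTR µ, which was the third highest of the 11. Pecam1 made up 47.4% of the reads of the 10 genes in the PBS library, 44.9% in IV CD45.1 µ and 32.7% in CTR µ, and between 5.01% and 22.9% in the other 8. Its share of these reads was thus high in libraries where Cldn5 and Ly6c1 had at most 3.44 CPM.

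Flt1, the receptor VEGFR-1, which binds VEGF-A and placental growth factor, was also counted in every library. It had 24.1, 124.6 and 13.0 CPM in ITL, ICV and IV CD45.1 TAµ, and 69.9, 21.0 and 70.0 CPM in ITL, ICV and IV CD45.2 µ, against 20.0, 7.27 and 8.10 CPM in ITL, ICV and IV CD45.1 µ. Within each of the 3 routes, the CD45.1 µ library had the lowest Flt1 of the 3 populations. Ly6c1, a GPI-anchored surface protein of brain endothelium, had 8.20, 42.8 and 1.22 CPM in ITL, ICV and IV CD45.1 TAµ, and 27.6, 6.72 and 37.1 CPM in ITL, ICV and IV CD45.2 µ, against 12.9 CPM in ITL CD45.1 µ and 0 in ICV and IV CD45.1 µ. Its order of libraries was the one closest to the rest of the list.

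The 2 mural genes did not share 1 order. Rgs5, a regulator of G-protein signalling that marks pericytes, had 8.93, 2.34 and 1.35 CPM in ITL, ICV and IV CD45.1 TAµ, and 19.7, 5.83 and 12.1 CPM in ITL, ICV and IV CD45.2 µ, against 18.2, 0 and 0 CPM in ITL, ICV and IV CD45.1 µ. The ITL library was the highest of the 3 routes in each population, and Rgs5 was low in ICV CD45.1 TAµ, the library with the most Flt1. Vtn codes for vitronectin, an adhesive glycoprotein of plasma and matrix that brain pericytes also make. It had 8.83, 19.1 and 1.49 CPM in ITL, ICV and IV CD45.1 TAµ, and 35.3, 10.01 and 28.1 CPM in ITL, ICV and IV CD45.2 µ, against 5.66, 23.7 and 0 CPM in ITL, ICV and IV CD45.1 µ. Vtn held 61.0% of the reads of the 10 genes in ICV CD45.1 µ, a library where 6 of the 10 were at 0. The choroid plexus and ependyma list summed to 1419 CPM in that library, of which Ttr, the transthyretin of choroid plexus, gave 853.9 CPM, and to at most 157.8 CPM in the others; its part in the Vtn level was not tested.

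The secreted proteins fell into a pair that ran together and 1 that did not. Igfbp7, a binding protein of the insulin-like growth factor family found in vessel basement membrane, had 4.204, 13.0 and 1.22 CPM in ITL, ICV and IV CD45.1 TAµ, and 13.3, 8.13 and 30.5 CPM in ITL, ICV and IV CD45.2 µ, against 5.57, 0.449 and 1.58 CPM in ITL, ICV and IV CD45.1 µ. Igfbp5, which binds the same growth factors, had 5.57, 20.1 and 1.89 CPM in ITL, ICV and IV CD45.1 TAµ, and 41.7, 29.1 and 65.2 CPM in ITL, ICV and IV CD45.2 µ, against 13.9, 0 and 0.762 CPM in ITL, ICV and IV CD45.1 µ. For Igfbp5 all 3 CD45.2 µ libraries lay above all 6 libraries of CD45.1 genotype, and it was the 1 member of 10 of which this held, beside 0.873% of the 12607 genes with 100 or more reads in the 9 libraries. Bgn, the matrix proteoglycan biglycan, had 4.31, 9.03 and 0.338 CPM in ITL, ICV and IV CD45.1 TAµ, and 13.0, 16.6 and 0 CPM in ITL, ICV and IV CD45.2 µ, against 1.46, 0 and 0 CPM in ITL, ICV and IV CD45.1 µ. Bgn was thus without a count in IV CD45.2 µ, the library with the highest levels of 5 other members, where 3 counts would be 0.232 CPM.

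**Figure D2:**
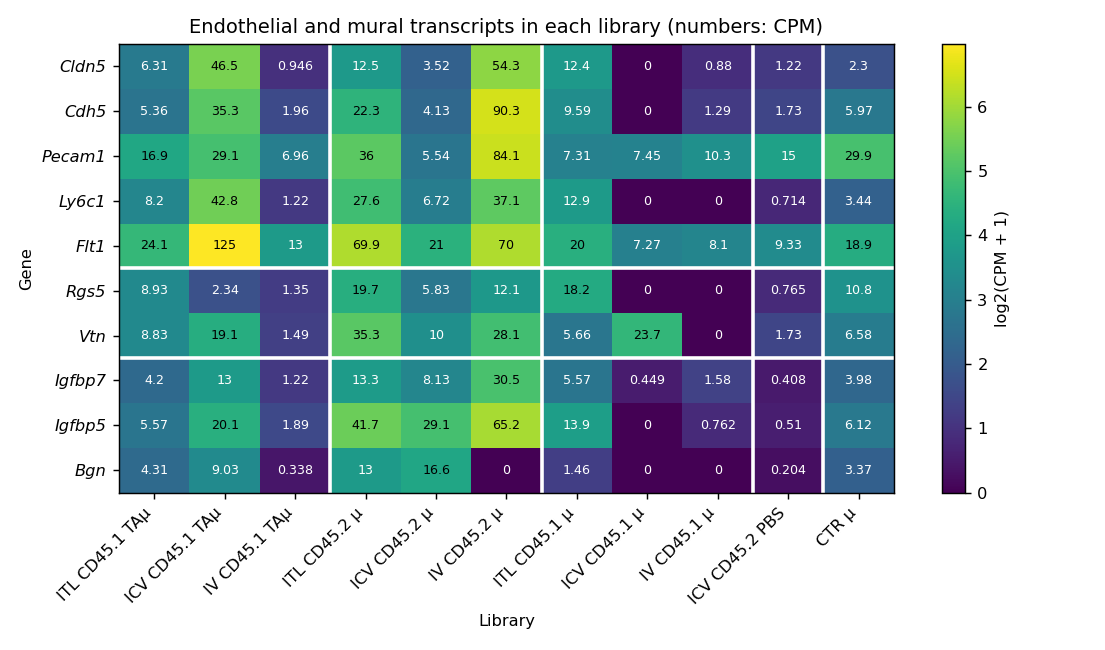
Levels of the 10 genes (rows, grouped as endothelial, mural and secreted) in the 11 libraries (columns, grouped by population, 1 library each); colour gives log2(CPM + 1) and the number in each cell the CPM. The columns of ICV CD45.1 TAµ and of IV CD45.2 µ are bright for the endothelial genes, IV CD45.1 µ is dark apart from Pecam1 and Flt1 and ICV CD45.1 µ apart from Pecam1, Flt1 and Vtn, and Bgn is 0 in IV CD45.2 µ.

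The mean level of each of the 10 members was higher over the CD45.2 µ libraries than over the CD45.1 µ libraries, but no member passed the test of edgeR. In an additive model of route and population over the 9 libraries (quasi-likelihood test of edgeR, p-values adjusted by Benjamini-Hochberg), all 10 members passed the filter on low counts, and their fitted log2 fold changes of CD45.2 µ over CD45.1 µ lay between 1.68 for Rgs5 and 4.43 for Bgn. Their median was 2.63, beside -0.0074 over all 13339 genes tested, of which 49.6% were positive. At an adjusted p under 0.05, 0 of 10 members and 0.03% of all genes were called. At an unadjusted p under 0.05, 7 of 10 members were higher, beside 4.94% of all genes. The 7 were Igfbp5, Flt1, Bgn, Igfbp7, Cdh5, Pecam1 and Ly6c1.

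Igfbp5 came nearest to the threshold. Igfbp5 averaged 45.3 ± 18.3 CPM in CD45.2 µ and 4.88 ± 7.81 CPM in CD45.1 µ (SD, n = 3 routes each), with a log2 fold change of 3.48 ± 0.87 (SE) and an adjusted p of 0.406 in edgeR. Flt1 averaged 53.7 ± 28.3 CPM in CD45.2 µ and 11.8 ± 7.13 CPM in CD45.1 µ, with a log2 fold change of 2.27 ± 0.76. Cdh5 averaged 38.9 ± 45.4 CPM in CD45.2 µ and 3.63 ± 5.21 CPM in CD45.1 µ, and the SD over routes was above the mean in both populations. The adjusted p was 0.485 for Flt1 and 0.493 for Cdh5 in edgeR. Within routes, Pecam1 and Vtn were lower in CD45.2 µ by the ICV route, and Bgn was at 0 in both IV libraries. The other members were higher in CD45.2 µ by each route, a pattern that was not counted over all genes. The ITL difference was the smallest for Cldn5, at 12.5 CPM in CD45.2 µ and 12.4 CPM in CD45.1 µ.

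The size of this difference changed when the libraries with the fewest genes counted were left out. With ICV CD45.1 µ and IV CD45.2 µ left out, a choice made after seeing the data, the median of the members was 0.358, and the log2 fold change was -1.95 for Cldn5 and -0.29 for Cdh5. Igfbp5 was at 1.26, Bgn at 3.06 and Vtn at 2.14 in that fit. Without IV CD45.2 µ alone the median was 1.12, and without ITL CD45.1 µ it was 5.77. With 1 library left out at a time, Igfbp5 lay between 2.47 and 6.74, Flt1 between 1.29 and 3.14 and Cdh5 between 0.974 and 5.81, each lowest without IV CD45.2 µ. DESeq2 called 1 member, Rgs5, at an adjusted p of 0.049 and a log2 fold change of 4.74, beside 277 of all 13339 genes. In edgeR the value for Rgs5 was 1.68. Rgs5 had no count in ICV and IV CD45.1 µ. By the ITL route it had 19.7 CPM in CD45.2 µ and 18.2 CPM in CD45.1 µ. Marker lists of other cells went both ways in the same edgeR contrast. In the choroid plexus and ependyma list 0 of 6 genes tested were positive, with a median of -2.77. The neuron list had 2 of 7 positive with a median of -0.99, and the neutrophil list 2 of 7 with a median of -0.731. In the fibroblast and meninges list 10 of 11 genes tested were positive with a median of 6.56, and 5 were higher at an unadjusted p under 0.05. In the astrocyte list 11 of 12 were positive with a median of 1.91, and 7 were higher at that level. In the oligodendrocyte list 8 of 10 were positive with a median of 1.90, and 3 were higher at that level. Of the 12 genes listed for fibroblast and meninges, 9, 10 and 8 were at 0 in ITL, ICV and IV CD45.1 µ. None of the genes of these lists was called in this contrast, and their part in the members' difference was not tested.

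**Figure D3:**
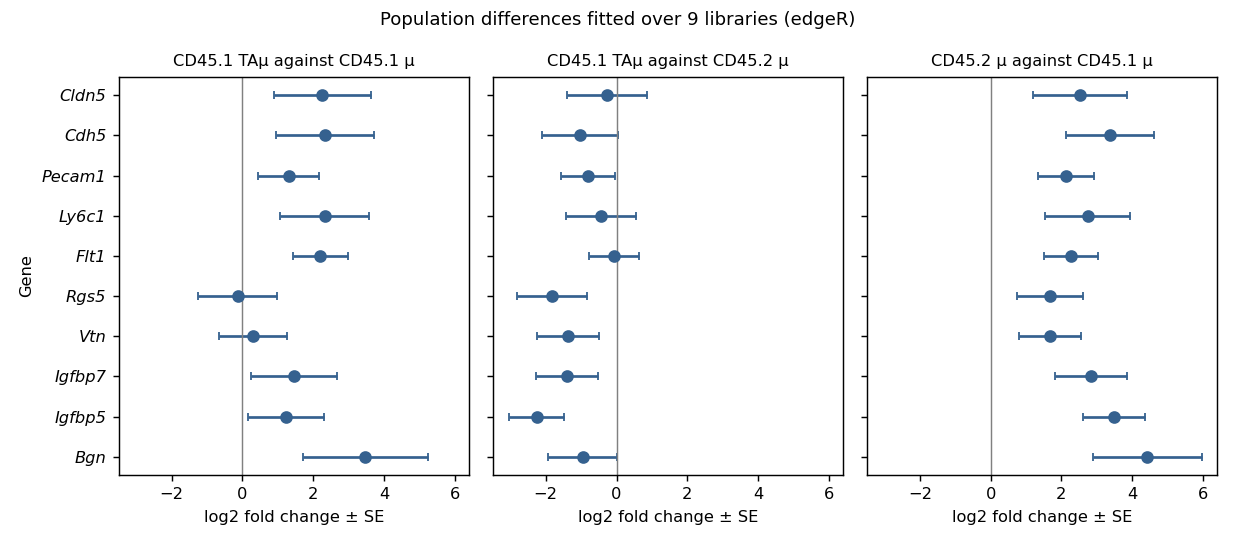
Log2 fold change (horizontal axis) of each of the 10 genes with its standard error, fitted with edgeR over 9 libraries, with CD45.1 TAµ against CD45.1 µ (left), CD45.1 TAµ against CD45.2 µ (middle) and CD45.2 µ against CD45.1 µ (right). Points of the right panel all lie above 0, between 1.68 and 4.43, those of the middle panel all below 0, and none passed an adjusted p of 0.05.

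CD45.1 TAµ and CD45.1 µ cells share the genotype label, and in this comparison 9 of 10 fitted log2 fold changes were positive, beside 54% of all genes, and their median was 1.83, beside 0.057 over all genes. No member was called, against 0.075% of all genes at an adjusted p under 0.05. Flt1 was the 1 member with an unadjusted p under 0.05, beside 3.23% of genes that were higher at that level. Flt1 averaged 53.9 ± 61.5 CPM in CD45.1 TAµ and 11.8 ± 7.13 CPM in CD45.1 µ (SD, n = 3 routes each), and its log2 fold change was 2.19 ± 0.78 with an adjusted p of 0.874 in edgeR. That value was 0.40 without ICV CD45.1 TAµ and 3.03 without IV CD45.1 TAµ. The direction of the members' median turned with the ICV library. Without ICV CD45.1 TAµ the median was -0.27, beside 0.093 over all genes, and 2 of 10 members were positive. In the ITL pair of libraries 6 of 10 members (Cldn5, Cdh5, Ly6c1, Rgs5, Igfbp7 and Igfbp5) had the lower level in CD45.1 TAµ. Neither count was made over all genes.

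Against CD45.2 µ, all 10 fitted values of CD45.1 TAµ were negative, beside 43.1% of all genes, with a median of -0.998, beside 0.098 over all genes, and again none was called, against 0.345% of all genes. This comparison shares its libraries with the other population contrasts. Igfbp5 was the 1 member with an unadjusted p under 0.05, beside 3.69% of genes that were lower at that level. It averaged 9.20 ± 9.66 CPM in CD45.1 TAµ and 45.3 ± 18.3 CPM in CD45.2 µ, a log2 fold change of -2.26 ± 0.78 with an adjusted p of 0.433 in edgeR. That value was -4.10 without ICV CD45.1 TAµ and -1.22 without IV CD45.2 µ. The direction was not the same by each route. By the ICV route the sum of the 5 endothelial genes was 278.2 CPM in CD45.1 TAµ and 40.9 CPM in CD45.2 µ, by the ITL route 60.9 CPM in CD45.1 TAµ and 168.3 CPM in CD45.2 µ, and by the IV route 24.1 CPM in CD45.1 TAµ and 335.7 CPM in CD45.2 µ. With 1 library per combination, whether population and route act together could not be tested. The median was 0.108 without IV CD45.1 TAµ and 0.162 without IV CD45.2 µ, and 0.232 with 5 of 10 positive when the 2 libraries with the fewest genes were left out.

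Between delivery routes edgeR called no member, and DESeq2 called Bgn in 2 of the 3 contrasts. Over the 3 populations the sum of the 10 genes averaged 163.6 ± 110.8 CPM by ITL, 163.8 ± 158.3 CPM by ICV and 175.0 ± 257.0 CPM by IV (SD, n = 3 populations each), and the SD over populations was above the mean for IV and close to it for ICV. The genes called at an adjusted p under 0.05 made up 0.217% of all genes for ITL against IV and 0% for ICV against IV and for ITL against ICV, and 0 of 10 members in each. At an unadjusted p under 0.05, 2 members (Bgn and Rgs5) were higher for ITL against IV, beside 2.26% of all genes, 1 member (Bgn) for ICV against IV, beside 5.17%, and 1 member (Rgs5) for ITL against ICV, beside 1.63%. Over all genes edgeR put 690 higher and 540 lower at that level for ICV against IV. For ITL against ICV it put 218 higher and 288 lower. DESeq2 called more genes than edgeR at an adjusted p under 0.05. Of 13339 genes, it called 150 for ITL against IV, 147 for ICV against IV and 32 for ITL against ICV.

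Rgs5 and Bgn stood apart from the other members here. Rgs5 averaged 15.6 ± 5.83 CPM by ITL, 2.72 ± 2.93 CPM by ICV and 4.49 ± 6.65 CPM by IV. Its log2 fold change was 2.58 ± 0.97 for ITL against ICV and 2.27 ± 0.92 for ITL against IV, with adjusted p of 0.998 and 0.804 in edgeR. With 1 library left out, the value for ITL against ICV lay between 1.76, without ITL CD45.1 µ, and 4.26, without ITL CD45.2 µ. For ITL against IV it lay between 1.39, without ITL CD45.1 µ, and 4.32, without IV CD45.2 µ. Bgn averaged 6.25 ± 5.99 CPM by ITL, 8.54 ± 8.30 CPM by ICV and 0.113 ± 0.195 CPM by IV, where 2 of 3 libraries were at 0. Its log2 fold changes of 5.63 ± 2.18 for ITL against IV and 6.21 ± 1.84 for ICV against IV had adjusted p of 0.795 and 0.349 in edgeR, and both passed in DESeq2, at 0.0116 and 0.0394. With 1 library left out they lay between 4.31 and 9.19 for ITL against IV and between 4.88 and 9.76 for ICV against IV, lowest without IV CD45.2 µ and highest without IV CD45.1 TAµ. The members' median was 0.537 for ITL against IV and 0.197 for ICV against IV, with 6 of 10 positive in each. Over all genes the medians were 0.049 and 0.065, and 7074 and 7185 of 13339 genes were positive. Without the 2 libraries with the fewest genes, 10 of 10 members were positive in each contrast. Their median was 3.67 for ITL against IV and 3.70 for ICV against IV, beside 0.053 and 0.035 over all genes. The share of all genes that were positive was not counted in that fit. Without IV CD45.2 µ alone, the members' median was 3.67 for ITL against IV and 2.99 for ICV against IV. Over all genes the medians of that fit were 0.051 and 0.039. The cause of these changes was not tested. The smooth muscle list, a further set of mural genes, had its highest sum in ITL CD45.2 µ too, at 61.9 CPM, while 9 of its 10 genes were at 0 in IV CD45.2 µ and in ICV CD45.1 µ.

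The PBS library can be set beside the µ library of the same route and genotype, with no replicate of either. ICV CD45.2 µ was over 2-fold higher than ICV CD45.2 PBS for 9 of 10 members, beside 5.82% of the 11848 genes with 50 or more reads in these libraries. Bgn had 353 reads in ICV CD45.2 µ and 4 in the PBS library, a ratio of 81.3 with an exact 95% interval of 31.5 to 300.1 that covers counting error only. Igfbp5 had 29.1 CPM in ICV CD45.2 µ and 0.510 CPM in PBS, a ratio of 57.1 (30.9 to 119.7), and Igfbp7 had 8.13 CPM in ICV CD45.2 µ and 0.408 CPM in PBS, a ratio of 19.9 (9.89 to 46.9). Of the endothelial genes, Ly6c1 had a ratio of 9.41 (5.43 to 17.6), and Cldn5, Flt1 and Cdh5 had ratios of 2.88, 2.25 and 2.39. The mural genes Rgs5 and Vtn had ratios of 7.62 (4.44 to 14.02) and 5.77 (4.01 to 8.55). Pecam1 went the other way, with 5.54 CPM in ICV CD45.2 µ and 14.99 CPM in PBS, a ratio of 0.370 (0.296 to 0.459), beside 7.49% of genes over 2-fold lower. The fibroblast and meninges list summed to 44.2 CPM in ICV CD45.2 µ and 5.61 CPM in PBS, the astrocyte list to 328.0 CPM in ICV CD45.2 µ and 63.4 CPM in PBS, and the oligodendrocyte list to 290.1 CPM in ICV CD45.2 µ and 102.1 CPM in PBS. The lists nearest to the members differed less. The endothelial list with the members left out summed to 326.3 CPM in ICV CD45.2 µ and 218.1 CPM in PBS. The pericyte list summed to 26.6 CPM in ICV CD45.2 µ and 22.9 CPM in PBS, and the smooth muscle list to 20.4 and 7.34 CPM. The part of all these lists in the members' ratios was not tested. These ratios compare 2 libraries and not 2 conditions.

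**Figure D4:**
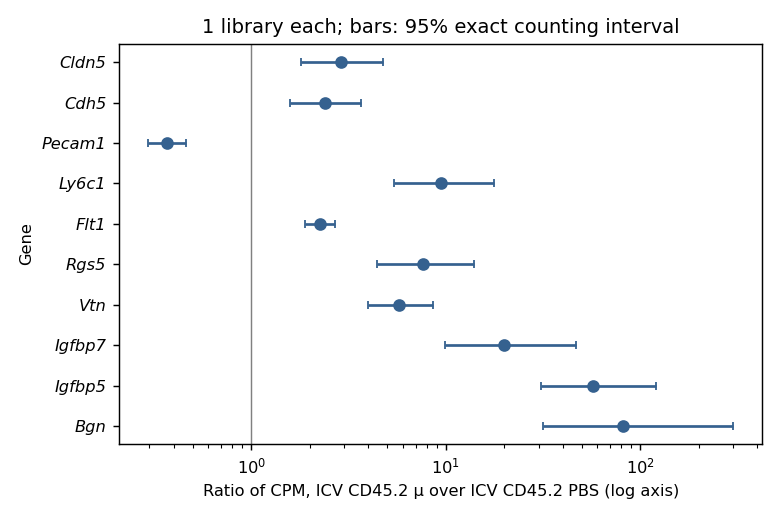
Ratio of CPM in ICV CD45.2 µ over ICV CD45.2 PBS for the 10 genes (log axis; 1 library each; bars are exact 95% intervals for counting error; the vertical line marks a ratio of 1). The ratios run from 0.370 for Pecam1 to 81.3 for Bgn, and the 3 secreted proteins are the 3 highest.

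Beside the CTR µ library, the 9 libraries of the complete layout lay on both sides for every member. None of the 10 was above CTR µ in all 9 or below it in all 9, beside 7.31% and 5.21% of the 12724 genes with 100 or more reads. Pecam1 was below the 29.9 CPM of CTR µ in 7 of 9 libraries, and Rgs5 below its 10.8 CPM in 6 of 9. Cldn5, at 2.30 CPM in CTR µ, was exceeded in 6 of 9.

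Across the 11 libraries the levels of the members, as log2(CPM + 1), varied together. All 45 pairwise Pearson correlations were positive, with a median of 0.671, the highest 0.970 between Igfbp5 and Igfbp7 and the lowest 0.0784 between Pecam1 and Bgn. Against the mean of the other 9, Ly6c1 correlated at 0.974, Igfbp7 at 0.951, Flt1 at 0.937, Igfbp5 at 0.934, Cdh5 at 0.933 and Cldn5 at 0.905. Rgs5, Vtn, Pecam1 and Bgn correlated at 0.733, 0.659, 0.645 and 0.505. These are descriptions over libraries that differ in depth and in the number of genes counted, and they carry no test.

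The 10 genes most like the members' mean, of 9769 with a mean of at least 5 CPM, were Col4a1 (0.965), Gpm6b, Gja1, Prex2, Mapk8ip1, Sept4, Podxl, Ltbp4, Slc4a4 and Hepacam (0.936). Col4a1 codes for a collagen IV chain of the vessel basement membrane and Podxl for podocalyxin of the endothelial surface. Gja1, Slc4a4 and Hepacam are known from astrocytes, whose end-feet cover brain vessels, and Gpm6b from neural and glial cells. Col4a1 had 73.7 CPM in IV CD45.2 µ, its highest library, and 0 in IV CD45.1 µ.

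The astrocyte and oligodendrocyte sums were highest in the 3 libraries with the highest sums of the members, while the neuron and choroid plexus sums were highest in ICV CD45.1 µ, where the members summed to 38.9 CPM. The astrocyte list of 12 genes summed to 225.8, 357.2 and 86.5 CPM in ITL, ICV and IV CD45.1 TAµ, and to 733.8, 328.0 and 806.9 CPM in ITL, ICV and IV CD45.2 µ, against 340.3, 218.1 and 164.1 CPM in ITL, ICV and IV CD45.1 µ. All 12 had a count in 8 libraries, while 1 or 2 were at 0 in each CD45.1 µ library. The oligodendrocyte list of 10 genes was highest in ICV CD45.1 TAµ at 1381 CPM and in ITL CD45.2 µ at 1017 CPM, and was 117.6 CPM in IV CD45.1 TAµ and 102.1 CPM in PBS. The erythroid list of 7 genes summed to at most 15.6 CPM and was at 0 in 4 libraries. The fibroblast and meninges list of 12 genes summed to at most 112.3 CPM in IV CD45.2 µ, where 6 of its genes were at 0, and to at least 2.28 CPM in ITL CD45.1 µ. The neuron list summed to 8.05 CPM in ITL CD45.2 µ, against 34.2 CPM in ITL CD45.1 µ, and to between 7.65 and 34.4 CPM over all libraries, with the platelet list between 84.7 and 178.2 CPM, and the monocyte list between 40.1 CPM in IV CD45.2 µ and 1025 CPM in IV CD45.1 µ. The part of these cells in the levels of the members was not tested.

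**Figure D5:**
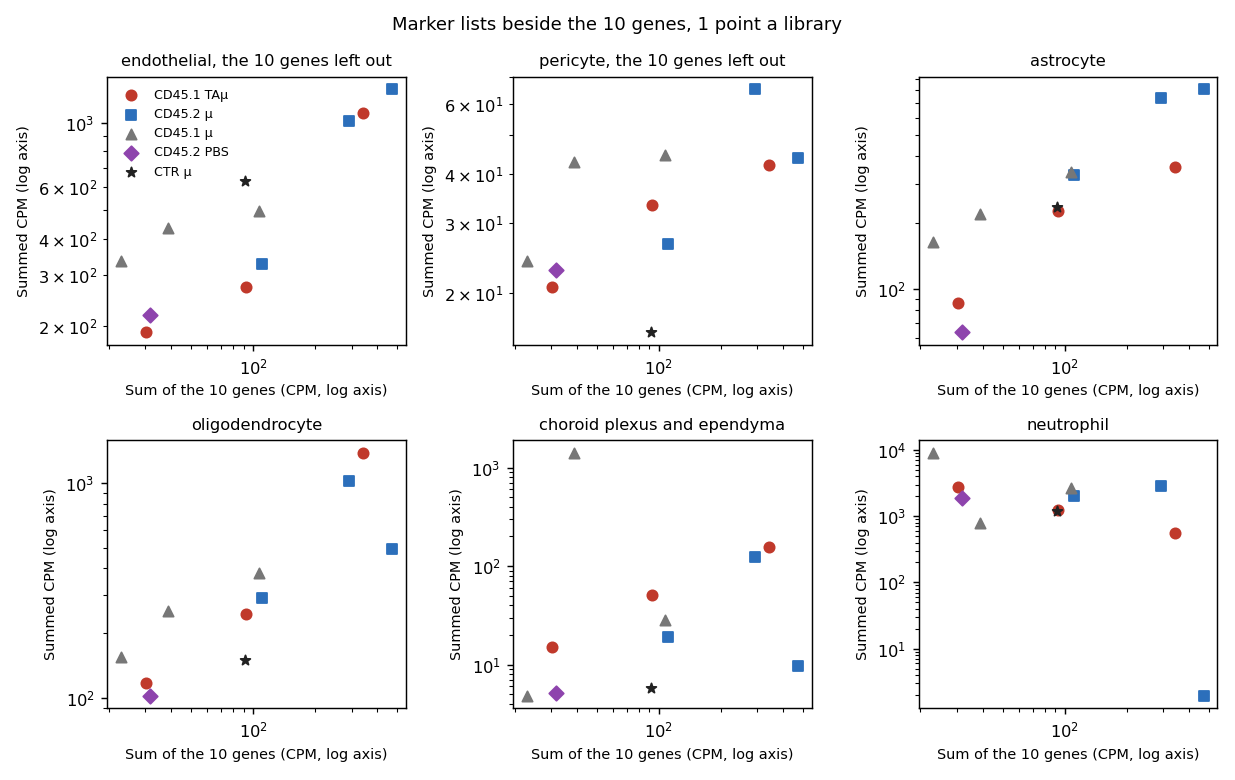
Summed CPM of 6 marker lists (vertical axes, log) against the sum of the 10 genes (horizontal axes, log), 1 point a library, marked by population. The endothelial, astrocyte and oligodendrocyte sums are highest among the 3 libraries in which the 10 genes exceed 290 CPM, while the choroid plexus sum peaks at 1419 CPM in ICV CD45.1 µ and the neutrophil sum is 1.93 CPM in IV CD45.2 µ.

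The wider endothelial list was mostly positive in CD45.2 µ against CD45.1 µ, and the other mural lists less so. Of 35 endothelial genes outside the 10, 33 were tested, and in this contrast 29 were positive with a median log2 fold change of 1.67, 0 were called and 11 were higher at an unadjusted p under 0.05. Of 8 pericyte genes tested outside the 10, 5 were positive with a median of 0.617, and at that level 0 were higher and 1 was lower. Of 6 smooth muscle genes tested, 4 were positive with a median of 0.220, and 0 were higher or lower at that level. The genes of the wider endothelial list with the highest mean levels were Eng, Slc2a1, Cd34 and Ecscr. Eng, the TGF-beta co-receptor endoglin, and Ecscr, a surface protein known from endothelium, were at 186.5 and 106.0 CPM in CTR µ, a library with 2.30 CPM of Cldn5. Cd34 had 149.2 CPM there. CTR µ was the highest library for Ecscr, as it was for P2ry12 of the microglia list, at 4907 CPM. Which cells these transcripts came from was not tested, so the list is not a measure of endothelial cells alone. Ecscr was the 1 gene of the wider endothelial list that was called in any of the 6 contrasts. It was lower in CD45.1 TAµ than in CD45.2 µ, with 6.41, 1.17 and 3.65 CPM in ITL, ICV and IV CD45.1 TAµ, and 96.9, 27.6 and 81.0 CPM in ITL, ICV and IV CD45.2 µ, a log2 fold change of -4.08 ± 0.59 and an adjusted p of 0.00218 in edgeR. Its levels did not overlap between these populations, and ICV CD45.1 TAµ, which had the second highest Cldn5, had the lowest Ecscr.

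Among the matrix proteins listed with Bgn and Vtn, Sparc, a collagen-binding secreted protein, was called lower in CD45.1 TAµ than in CD45.2 µ. It had 116.0, 252.4 and 89.5 CPM in ITL, ICV and IV CD45.1 TAµ, and 1352, 459.1 and 2040 CPM in ITL, ICV and IV CD45.2 µ, with a log2 fold change of -2.84 ± 0.50 and an adjusted p of 0.0137 in edgeR. Sparc was at 2228 CPM in CTR µ, its highest library, whereas no member had its highest level there. Itgb3, P2ry12 and Slc1a3 were called lower in the same contrast, with log2 fold changes of -3.81, -1.44 and -2.57. Itgb3 is an integrin subunit known from platelets and vessels. P2ry12 is the purine receptor of microglia and platelets, and Slc1a3 a glutamate transporter of astrocytes. Itgb3 had 89.7 CPM in CTR µ, where Pf4 of the platelet list had 10.9 CPM. Which cells the transcripts of Sparc and of these genes came from was not tested. The pericyte list of 15 genes summed to at most 65.4 CPM in ITL CD45.2 µ and at least 15.9 CPM in CTR µ. Of its 15 genes, 9 were at 0 in IV CD45.2 µ, and 8, 9 and 10 in ITL, ICV and IV CD45.1 µ.

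In the pathway lists no other gene was called. Of the VEGF ligands and receptors other than Flt1, 7 were tested, and 6 of the 7 were positive in CD45.2 µ against CD45.1 µ, with a median of 0.528. The negative one, at -0.739, was also the most abundant. This was Nrp1, a VEGF co-receptor, at 610.9, 742.2 and 699.5 CPM in ITL, ICV and IV CD45.1 TAµ, and 296.9, 623.9 and 358.9 CPM in ITL, ICV and IV CD45.2 µ, against 618.5, 793.6 and 719.7 CPM in ITL, ICV and IV CD45.1 µ. Of the IGF ligands, receptors and binding proteins other than Igfbp5 and Igfbp7, 6 were tested and all 6 had a negative log2 fold change in CD45.2 µ against CD45.1 µ, with a median of -1.004 and 0 called, opposite in sign to the 2 members. Igf1 had 40.5, 116.0 and 57.3 CPM in ITL, ICV and IV CD45.2 µ, against 160.9, 175.1 and 125.9 CPM in ITL, ICV and IV CD45.1 µ. Of the junction proteins other than the members, 8 were tested, with a median of 0.114 and 4 of 8 positive in the same contrast. Of 12 endothelial transcription factors 9 were positive, with a median of 0.848. Of the R4 regulators other than Rgs5, 6 were tested with a median of 0.029, and of the Ly6 cluster other than Ly6c1, 3 were tested with a median of 0.122. These lists hold genes that myeloid cells also express, such as Nrp1, Igf1, Tjp1 and Fli1.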

How the data were processed

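Polyadenylated RNA of sorted myeloid brain cells was sequenced in 11 libraries. The deposited files hold raw counts per gene symbol, and per the submitters' processing notes the authors aligned with STAR to mm39 (GRCm39); version, annotation and strand setting were not stated in any source used. Levels are CPM, counts over the library total times 1000000; differences and correlations use log2(CPM + 1). Genes were tested with edgeR 4.0.16 (TMM, filterByExpr with a minimum count of 10 and total of 15, 13339 genes, bias-adjusted glmQLFit, legacy = FALSE) in an additive model of route and population over the 9 complete-layout libraries, with 4 residual degrees of freedom per gene and a biological coefficient of variation of 0.842. Standard errors are the log2 fold change over the root of F. Since each combination is 1 library, p-values measure the spread between these libraries. The package's default legacy fit was run first. The bias-adjusted fit replaced it after the legacy call counts differed from earlier results of these data, which the bias-adjusted fit matched; edgeR called no member with either. Alternatives used DESeq2 1.42.0, limma 3.58.1 and other scalings, filters and subsets. Intervals are exact conditional 95% intervals. The test was checked on simulated counts. The members and the 20 gene lists were chosen with earlier results of these data known. Named are the members, up to 4 genes per list by mean level, list genes that passed and the 10 genes most alike. Sequences come from RefSeq (GRCm38.p6) and GENCODE, and are not tied to the counts' build.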

Additional observations from a re-analysis of the deposited data

How the results depend on the processing

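The labels carry no replicate numbers, so no replicate pairing was made. The additive model compares populations within routes and routes within populations, and the fits without that term are given below. Genes called in CD45.1 TAµ against CD45.1 µ (10) were 18 without TMM, 23 without the filter, 217 with DESeq2, 17 with limma-voom, 3 with the legacy fit and 2 without the route term, and 0 to 24 with 1 library left out. In CD45.2 µ against CD45.1 µ (4) they were 277 with DESeq2, 0 with limma-voom, 0 with the legacy fit and 0 without the route term, and 0 to 29 with 1 library left out. For CD45.1 TAµ against CD45.2 µ (46) they were 193 with DESeq2, 131 with limma-voom, 22 with the legacy fit and 29 without the route term, and 5 to 159 with 1 library left out. For ITL against IV (29) they were 150 with DESeq2, 107 with limma-voom, 10 with the legacy fit, 13 without the population term and 49 without the 2 libraries with the fewest genes, and 0 to 35 with 1 library left out. For ICV against IV (0) they were 3 without TMM, 8 without the filter and 147 with DESeq2, and 0 to 28 with 1 library left out. For ITL against ICV (0) they were 2 without the filter, 32 with DESeq2 and 2 without those 2 libraries, and 0 to 3 with 1 library left out. DESeq2 called 1 member in CD45.2 µ against CD45.1 µ, 1 for ITL against IV and 1 for ICV against IV, and no other alternative called a member.

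Without the 2 libraries with the fewest genes, the CD45.2 µ over CD45.1 µ log2 fold change was -1.95 for Cldn5 and -0.29 for Cdh5, and the members' median was 0.23 for CD45.1 TAµ against CD45.2 µ, -0.45 for ITL against ICV, 3.67 for ITL against IV and 3.70 for ICV against IV. With the legacy fit it was 1.49 for ITL against IV, 0.52 for ICV against IV and 0.76 for ITL against ICV. Without the population term the median was -0.034 for ICV against IV and -0.23 for ITL against ICV. The removal of the 2 libraries was chosen after seeing the data, as was the use of the bias-adjusted in place of the legacy fit. The cause of these changes was not tested. Leaving out 1 library at a time, the log2 fold change of Cldn5 for CD45.2 µ over CD45.1 µ ranged from -0.075 to 5.73. The median over members ranged from -0.27 to 4.63 in CD45.1 TAµ against CD45.1 µ, from -2.68 to 0.16 for CD45.1 TAµ against CD45.2 µ, from -0.18 to 3.67 for ITL against IV, from -1.23 to 2.99 for ICV against IV and from -1.23 to 1.88 for ITL against ICV. Scaling by TMM factors or without Rn45s moved the mean summed level of each population by less than its SD. These SDs were 164.8, 180.5 and 44.65 CPM in CD45.1 TAµ, CD45.2 µ and CD45.1 µ, on means of 155, 291.2 and 56.24 CPM. With SDs this large, the comparison says little about the scaling. Levels of the low members are limited by depth, with 6 of 10 members at 0 in ICV CD45.1 µ.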
